A study of Mus musculus with 2 samples.

Results

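The genes described here are Fos, Fosb, Jun, Junb, Jund, Egr1, Atf3, Ier2, Dusp1 and Btg2, which are immediate early genes and genes of the AP-1 transcription factor. They were chosen by name, and all 10 were found among the 27998 genes listed for each library. Hepatocytes had been isolated by collagenase perfusion from C57BL/6 mice on a normal diet, 10 to 12 weeks of age by the labels, and their transcripts had been counted by droplet scRNA-Seq. The PHx0h library came from a healthy, undamaged liver, and the PHx48h library came from a liver 48 hours after partial hepatectomy (PHx), the surgical removal of liver lobes that sets off regeneration. The labels give the surgery as the protocol of both libraries, so they do not say what was done to the mouse at 0 hours. By the study's methods the mice were male and each library held part of the cells of 1 mouse. With 1 library at each time point no test was possible, every interval below covers counting error only, and time cannot be told apart from mouse, perfusion, library or depth.

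Immediate early genes are transcribed within minutes of a stimulus, before any new protein is made, by factors already in the cell that MAP kinases or cAMP signaling switch on. Fos and Jun proteins pair to form AP-1, which binds the TRE and CRE motifs in promoters and enhancers. Egr1 is a zinc finger factor, Ier2 a nuclear regulator of transcription, Dusp1 the phosphatase that switches MAP kinases off again, and Btg2 an antiproliferative gene that p53 and growth signals induce. In the liver these genes are known for their early response to PHx, and in many tissues for their response to enzymatic dissociation itself.

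PHx0h held 59202 cell barcodes with 96118593 unique molecular identifiers (UMIs, 1 for each captured transcript), and PHx48h held 1586 barcodes with 18198719 UMIs. The median barcode had 1436 and 6838.5 UMIs, and 148 barcode sequences occurred in both libraries. Mitochondrial genes gave 6.24% of UMIs at 0 hours and 37.0% at 48 hours, so levels are given as counts per 1000000 non-mitochondrial UMIs (CPM), summed over all barcodes of a group. Barcodes over 30% mitochondrial numbered 3870 (6.54%) at 0 hours and 765 (48.2%) at 48 hours. Barcodes under 2% numbered 52587 (88.8%) and 522 (32.9%). Of the latter, 1.77% at 0 hours and 23.6% at 48 hours departed by more than sampling noise from a pooled profile. That profile was summed over alternate barcodes under 2% of the same library, and departures from it are easier to call in deeper barcodes. Endothelial-like (225 at 0 hours and 35 at 48 hours), macrophage-like (169 and 19) and stromal-like (95 and 37) barcodes were found at both times, and T or NK-like barcodes (51) at 0 hours. Hepatocyte-like barcodes at 2% to 30% mitochondrial numbered 273 and 148. Of the barcodes under 2%, 194 at 0 hours and 4 at 48 hours were also in a named non-hepatocyte class.

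The labelled cell type was checked against markers. In barcodes over 30% the 10 hepatocyte markers, Alb among them, summed to 100646 CPM at 0 hours and 100157 CPM at 48 hours, while the 12 endothelial markers summed to 43.6 and 75.8 CPM and the 10 macrophage markers to 37.2 and 25.9 CPM. In barcodes under 2% the hepatocyte markers summed to 93344 and 65751 CPM. The markers of its own class summed to 8096 and 7571 CPM in endothelial-like barcodes, to 15480 and 13285 CPM in macrophage-like barcodes, to 7058 and 12756 CPM in stromal-like barcodes and to 1930 CPM in T or NK-like barcodes. Stromal-like barcodes at 48 hours also carried endothelial markers at 3604 CPM, with 11 of 12 at least 2-fold above their level at 0 hours, so that group mixes the classes. The endothelial-like barcodes at 0 hours also met 7 stromal markers, and at a finer clustering resolution of 1.5 the class held 135 barcodes, while unnamed clusters of 44 and 43 barcodes each met 12 endothelial and 9 stromal markers. The cluster of 44 barcodes also met 9 macrophage markers. The part of stromal or macrophage cells in the values of the endothelial-like class was not tested. Hepatocyte markers stood at 20463 to 73980 CPM in these classes, so part of every class's UMIs came from hepatocyte RNA.

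The upstream sequence of the members is shown because the binding letters for AP-1 and for CREB lie there. Of the 10 members, 8 had an entry among the 27025 RefSeq promoters used here (build GRCm38.p6), each read over the 250 bases before the RefSeq start site on both strands. For Fos and Jun that start is also where the GENCODE gene begins, for Junb and Btg2 it lies 30 and 35 bases before it, and for Jund 1210 bases before it, so the Jund window stands apart from the GENCODE gene. For Atf3 and Dusp1 it lies inside the GENCODE gene. The CRE, TGACGTCA, was in 2 of 8 (Dusp1 and Btg2) and in 1.62% of all promoters. Its 5-base core, TGACG or CGTCA, was in 6 of 8 and in 17.9% of all promoters. The canonical TRE, TGACTCA or TGAGTCA, was in 0 of 8 and in 4.43%, while its variant TGACATCA or TGATGTCA was in 1 of 8 (Jun) and in 3.02%. The CArG box that serum response factor binds was in 0 of 8 of these windows and in 1.4% of all. Bases farther upstream were not read, so the members may carry any of these motifs there. The core lies inside the CRE, so a CRE counts as a core too. The variant was added after the Jun window had been read, and a match is only a match of letters. Shown are Fos and Btg2, with large ratios of 48 hours to 0 hours in barcodes over 30%, Jun, and Junb and Dusp1, which were no higher at 48 hours there. Capitals mark the CRE, its core or the TRE variant, and each sequence runs 5′ to 3′ toward the start site.
Fos, chr12:85473640-85473889, plus strand: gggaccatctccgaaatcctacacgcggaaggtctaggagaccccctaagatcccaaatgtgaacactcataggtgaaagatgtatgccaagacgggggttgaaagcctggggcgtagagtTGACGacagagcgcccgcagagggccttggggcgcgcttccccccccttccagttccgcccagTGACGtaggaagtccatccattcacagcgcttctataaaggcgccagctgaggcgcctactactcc
Jun, chr4:95052223-95052472, minus strand: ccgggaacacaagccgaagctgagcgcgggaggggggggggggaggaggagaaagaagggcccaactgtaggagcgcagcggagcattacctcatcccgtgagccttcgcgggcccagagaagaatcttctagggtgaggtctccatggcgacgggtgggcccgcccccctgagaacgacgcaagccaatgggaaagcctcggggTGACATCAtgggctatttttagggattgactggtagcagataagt
Junb, chr8:84978749-84978998, minus strand: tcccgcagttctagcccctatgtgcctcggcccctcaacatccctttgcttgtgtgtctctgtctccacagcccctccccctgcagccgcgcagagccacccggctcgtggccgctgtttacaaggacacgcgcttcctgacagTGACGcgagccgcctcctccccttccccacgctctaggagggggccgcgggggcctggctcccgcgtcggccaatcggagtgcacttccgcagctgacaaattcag
Btg2, chr1:134079156-134079405, minus strand: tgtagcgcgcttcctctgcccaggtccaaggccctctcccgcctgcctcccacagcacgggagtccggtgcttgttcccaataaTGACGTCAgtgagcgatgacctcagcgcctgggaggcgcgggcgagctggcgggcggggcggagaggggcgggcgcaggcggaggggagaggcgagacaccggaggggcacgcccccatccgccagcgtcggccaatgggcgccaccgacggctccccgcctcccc
Dusp1, chr17:26508597-26508626, minus strand: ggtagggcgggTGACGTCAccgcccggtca

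In Fos the core lay 66 to 62 bases and 129 to 125 bases upstream of the start, in Junb 106 to 102 bases upstream, and in Btg2 the CRE lay 166 to 159 bases upstream. In Dusp1 the CRE lay 143 to 136 bases upstream, and in Jun the TRE variant lay 45 to 38 bases upstream. Both a member with a high ratio (Btg2) and a member with no higher level at 48 hours (Dusp1) thus carried a CRE. The windows of Fos, Junb and Btg2 overlapped no annotated exon, and that of Jun lay in an intron of the antisense gene Junos. G and C made up 58.4% of the window in Fos and 73.2% in Btg2, and 47.6% in Jund, against a median of 52% over all promoters. In the GENCODE M21 annotation (GRCm38) Fos is at chr12:85473890-85477273 with 4 exons in its longest transcript. Jun (chr4:95049034-95052222) and Jund (chr8:70698949-70700616) have 1 transcript of a single exon each. Junb (chr8:84974484-84978718) has 2 transcripts, of which the longest has 1 exon. Btg2 is at chr1:134075170-134079120 and Dusp1 at chr17:26505590-26562128.

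Barcodes over 30% mitochondrial were used first to ask how the members differed between the undamaged and the regenerating liver. Of these, 2770 of 3870 at 0 hours and 745 of 765 at 48 hours departed from the pooled profile of barcodes under 2%. The group at 0 hours thus held a larger share of barcodes not set apart from that profile. Of the 9 members with at least 20 UMIs over both sums, 7 were at least 2-fold higher at 48 hours, against a background of 31.8% of 10205 genes, and 0 were at least 2-fold lower, against 5.69%. Their median log2 ratio was 1.54, and that of all genes 0.56. The members did not stand together. Fos, Atf3 and Btg2 had the larger ratios, Jun, Jund, Egr1 and Ier2 stood between 2.14-fold and 3.29-fold, and Junb and Dusp1 were no higher at 48 hours.

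Fos, the subunit that pairs with Jun proteins, was at 2.77 CPM (95% Poisson interval 1.58 to 4.50, 16 UMIs) at 0 hours and at 44.1 CPM (38.5 to 50.2, 225 UMIs) at 48 hours. The ratio was 15.9-fold, a log2 ratio of 3.99 (3.26 to 4.82). All 3870 barcodes at 0 hours thus held 16 Fos transcripts between them. Fosb, its close relative, was at 0 UMIs at 0 hours, where 3 UMIs would be 0.519 CPM, and at 0.784 CPM (4 UMIs) at 48 hours, at least 1.51-fold higher than that floor. Atf3, a stress-induced CREB family partner of AP-1, was at 0.346 CPM (2 UMIs) and at 4.31 CPM (22 UMIs), a 12.45-fold ratio with an interval of 3.06 to 109. Both genes were low at each time point.

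Jun, the major partner of Fos, was at 37.6 CPM (32.7 to 42.9) at 0 hours and at 109 CPM (100.4 to 118.8) at 48 hours, a log2 ratio of 1.54 (1.31 to 1.77). Jund, the most constantly expressed Jun protein, was at 67.0 CPM (60.5 to 74.0) and at 143 CPM (132.8 to 153.8), a log2 ratio of 1.09 (0.91 to 1.28). Junb, the Jun protein known to restrain Jun, went the other way, with 51.4 CPM (45.7 to 57.6) at 0 hours and 38.6 CPM (33.4 to 44.4) at 48 hours. Its log2 ratio was −0.41 (−0.68 to −0.15), and it was 0.011 when only barcodes over 50% mitochondrial were summed. The intervals of the 3 Jun genes did not overlap, with Jun highest, then Jund, then Junb.

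Egr1 was at 46.0 CPM (40.7 to 51.9) at 0 hours and at 115 CPM (105.9 to 124.7) at 48 hours, a log2 ratio of 1.32 (1.11 to 1.54). Ier2 was at 32.2 CPM (27.7 to 37.2) and at 106 CPM (97.1 to 115.1), a log2 ratio of 1.72 (1.47 to 1.97). Btg2 was at 16.6 CPM (13.5 to 20.3) and at 79.4 CPM (71.8 to 87.5), a log2 ratio of 2.26 (1.93 to 2.59). Of the 9 members, Fos and Atf3, with 16 and 2 UMIs at 0 hours, had higher ratios than Btg2. Dusp1, the feedback phosphatase, was at 40.3 CPM (35.3 to 45.8) and at 37.8 CPM (32.7 to 43.5), a log2 ratio of −0.09 (−0.38 to 0.19).

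**Figure D1:**
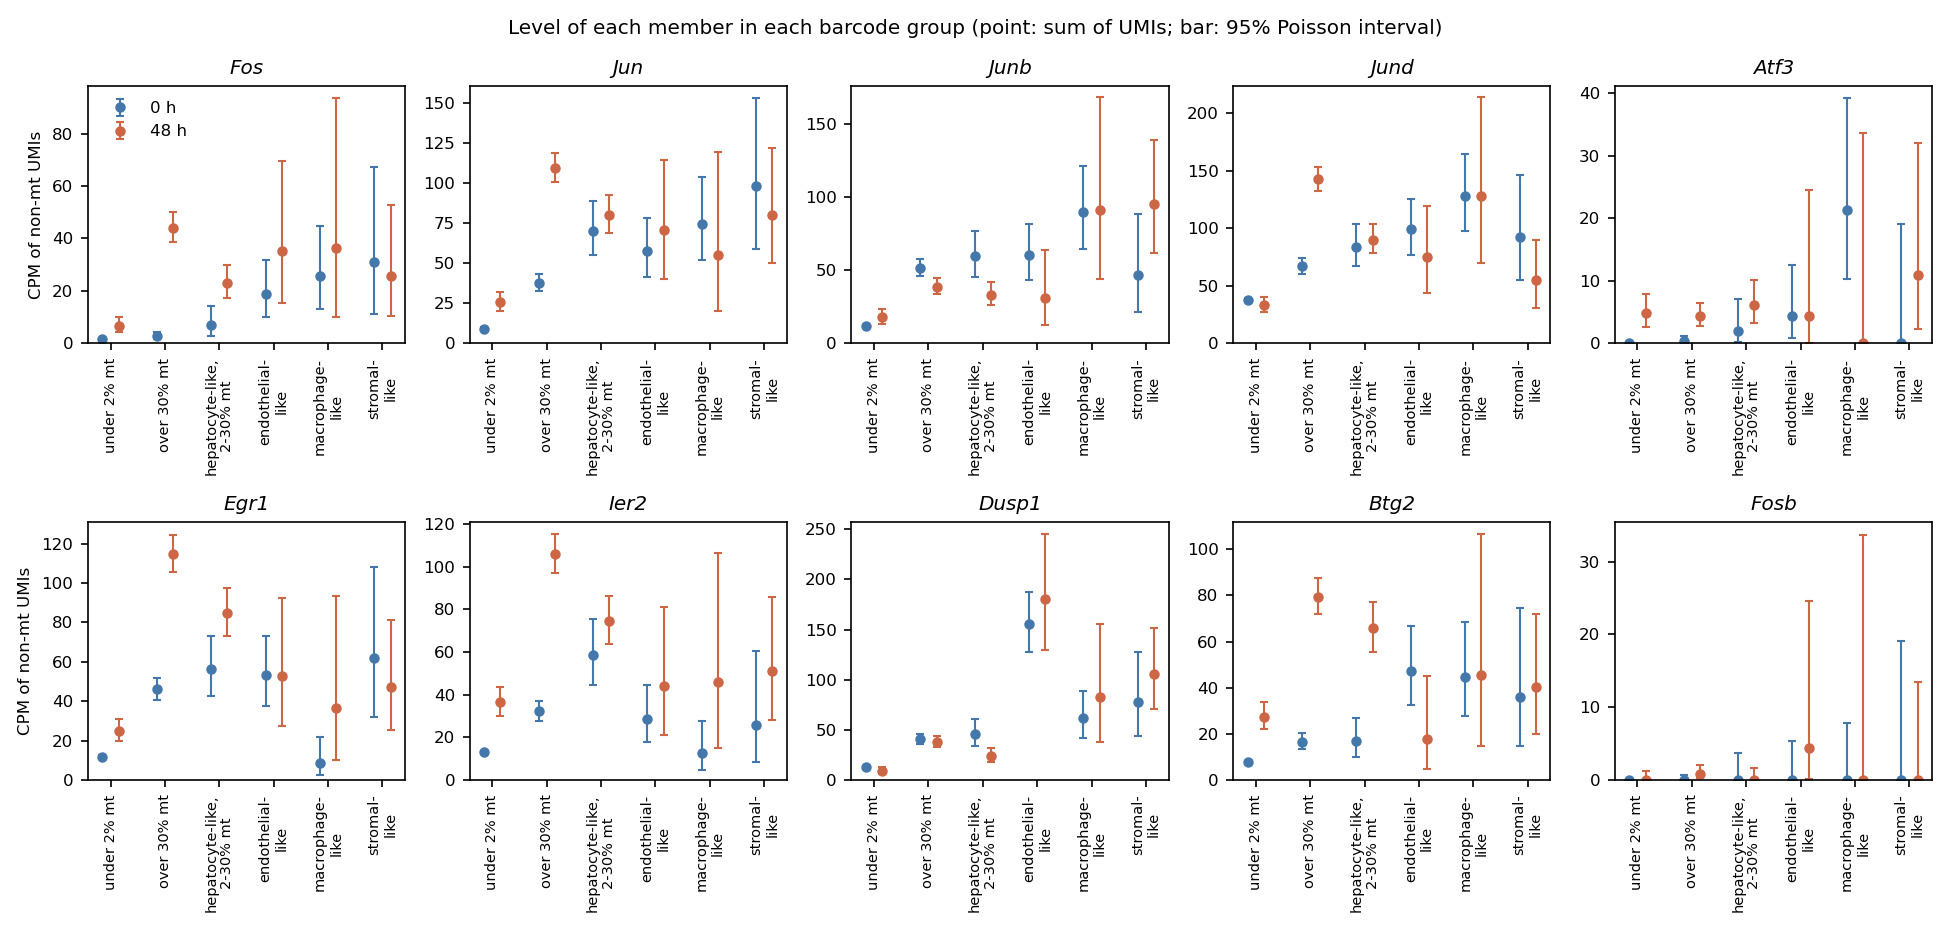
Level of each of the 10 members in CPM of non-mitochondrial UMIs, in 6 groups of barcodes at 0 hours (blue) and 48 hours (orange); bars are exact 95% Poisson intervals and cover counting error only. In barcodes over 30% mitochondrial Fos stands at 2.77 and 44.1 CPM, while Dusp1 stands at 40.3 and 37.8 CPM.

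The shift of all genes bears on these counts. TMM scaling moved every ratio in this comparison down by 0.56 on the log2 scale, which is also the median of all genes, and 4 members (Fos, Atf3, Btg2 and Ier2) then stayed at least 2-fold higher. The share of all genes past 2-fold was not counted under that scaling, so the 4 have no background beside them. The intervals of 7 of 9 members lay above the median of all genes and those of Junb and Dusp1 below it. Heat shock genes, which tissue dissociation is also known to induce, were counted beside them. Of 12 such genes 6 were at least 2-fold higher at 48 hours and 0 lower, beside 31.8% and 5.69% of all genes. Their median log2 ratio was 1.07 (Hspa1a 2.11 and Hspa8 1.69 at the top, Hspb1 −0.84 and Hspa1b 0.21 at the bottom). Their summed level was 1310 CPM at 0 hours and 3096 CPM at 48 hours. Nuclear retained RNAs, which mark broken cells or nuclei, summed to 6020 CPM and 3543 CPM, with Malat1 at a log2 ratio of −0.73, Neat1 at −1.09, Meg3 at −0.05 and Kcnq1ot1 at 1.30. The part of dissociation or of broken cells in the members' ratios was not tested.

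**Figure D2:**
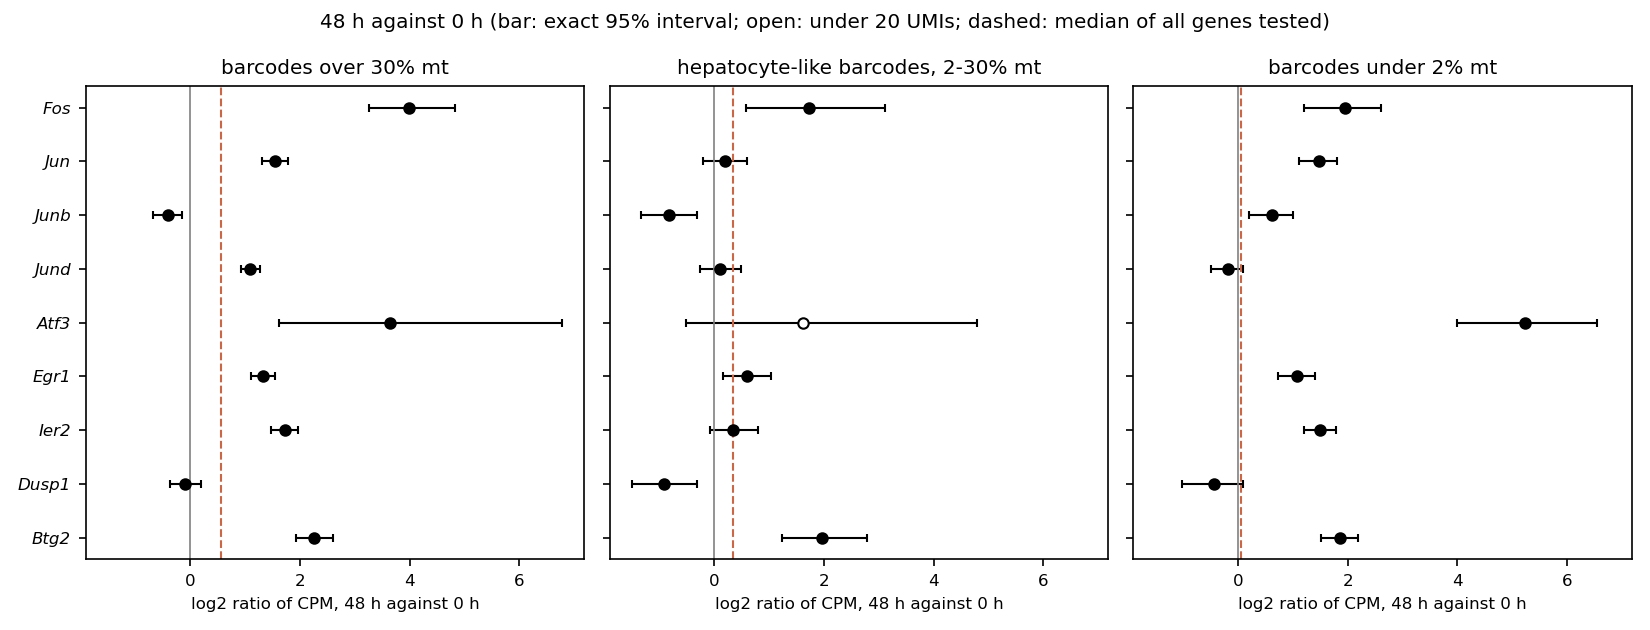
Log2 ratio of the level at 48 hours to that at 0 hours for 9 members in barcodes over 30% mitochondrial, hepatocyte-like barcodes at 2% to 30% and barcodes under 2%; bars are exact 95% intervals for counting error, open symbols have under 20 UMIs, and dashed lines are the medians of all genes (0.56, 0.33 and 0.05). Fos and Btg2 lie above all 3 medians, while Junb lies at −0.41, −0.83 and 0.62.

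The mitochondrial share differed between the libraries even within this group, with medians of 48.2% and 57.0%, so the ratios were also taken within bins of that share. From 30% to 40%, 40% to 50%, 50% to 60% and 60% to 80%, 8 members had at least 20 UMIs in each bin, and 4, 6, 6 and 6 of them were at least 2-fold higher at 48 hours, against 32.1%, 32.3%, 31.8% and 37.7% of all genes. The median of all genes was 0.52 to 0.55 in these bins. Btg2 had log2 ratios of 1.05, 2.05 and 3.18 in the lower 3 bins, Jun 1.08, 1.32 and 2.31, and Ier2 1.12, 1.22 and 2.11. In the bin from 60% to 80%, with 197 barcodes at 0 hours and 1 UMI there for each of these genes, they had 3.52 (1.02 to 8.84), 3.84 (1.34 to 9.15) and 4.17 (1.68 to 9.49). Fos had 4.02 (2.67 to 5.73), 3.90 and 3.61 in the lower 3 bins, and in the bin from 60% to 80% it had 0 UMIs at 0 hours and 62 at 48 hours, at least 2.08-fold above the floor of 3 UMIs. Jund was at 0.17 (−0.27 to 0.60) in the lowest bin and at 1.16 to 1.33 in the others. Junb was at −1.26 (−2.03 to −0.56) in the lowest bin and at −0.44, 0.01 and −0.19 above it, and Dusp1 stayed between −0.44 and 0.11. In every bin the ratios of Fos, Jun, Ier2, Btg2 and Egr1 thus stood above those of Junb and Dusp1.

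Within a library some members also differed between bins, downward at 0 hours and upward at 48 hours. At 0 hours the bin from 50% to 60% stood below that from 30% to 40%, with a log2 ratio of −1.08 (−1.74 to −0.46) for Jun, −1.02 (−2.05 to −0.07) for Btg2, −0.52 (−1.02 to −0.04) for Junb and −0.48 (−0.92 to −0.06) for Jund. At 48 hours it stood above, with 1.12 (0.56 to 1.71) for Btg2, 0.67 (0.27 to 1.09) for Jund, 0.62 (0.18 to 1.07) for Ier2, 0.46 (0.04 to 0.90) for Egr1 and 0.75 (0.01 to 1.55) for Junb. Junb was thus among the members that stood below at 0 hours and above at 48 hours. The median of all genes in these bins was −0.02 at 0 hours and −0.05 at 48 hours.

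**Figure D3:**
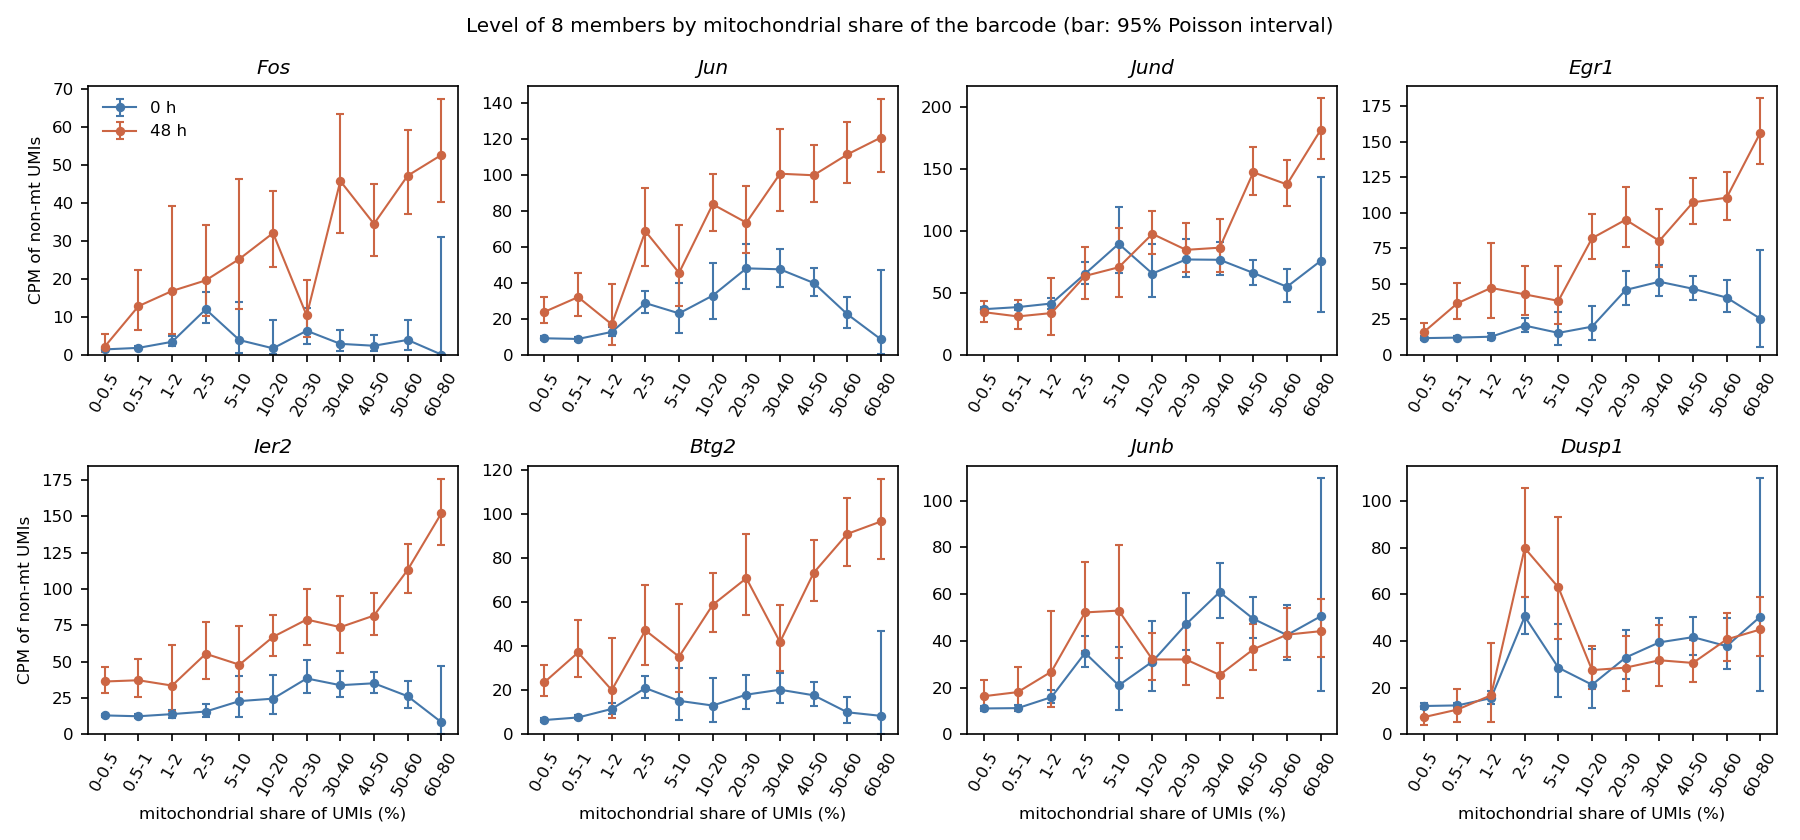
Level of 8 members (CPM of non-mitochondrial UMIs) in 11 bins of mitochondrial share, from 0% to 80%, at 0 hours (blue) and 48 hours (orange); bars are exact 95% Poisson intervals. Over 30%, Btg2 at 0 hours goes from 20.3 CPM in the bin from 30% to 40% down to 10.0 CPM in that from 50% to 60%, and at 48 hours from 42.0 up to 91.1 CPM.

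Clusters of the barcodes over 30%, made without the members, were then compared. At 0 hours, 5 hepatocyte-like clusters differed in the members' levels. The cluster led by Slc1a2, Tbx3os1 and Rhbg (462 barcodes), with the perivenous gene Glul among its leading genes, had Jun at 129 CPM, Egr1 at 146 CPM, Jund at 143 CPM and Ier2 at 80.8 CPM. The cluster led by Slc22a7, Cdh1 and Aspg (1084 barcodes) had Jun at 13.9, Egr1 at 23.1, Jund at 49.0 and Ier2 at 14.8 CPM. Jun in the highest cluster thus stood 9.30-fold above the lowest, while Egr1 stood 7.25-fold above its lowest, which was the cluster led by Hsd17b6, Cdh1 and Saa1 (561 barcodes) at 20.1 CPM. Fos was at 1.44 to 5.67 CPM in these 5 clusters, so none of the 5 reached the 44.1 CPM of barcodes over 30% at 48 hours. At 48 hours, 6 hepatocyte-like clusters had the lowest and the highest level 2.32-fold apart for Jun, 3.13-fold for Egr1 and 3.14-fold for Ier2 (5.62-fold at 0 hours). Dusp1 had a like range at both times (2.79-fold at 0 hours and 2.75-fold at 48 hours), and Btg2 a wider one at 48 hours (2.91-fold and 3.802-fold). Fos stood at 3.94-fold and 3.61-fold, but all barcodes over 30% at 0 hours held 16 Fos UMIs, so its range there rests on few UMIs. The cluster led by Kptn, Golga4 and Pim3 (60 barcodes) was the highest for Fos (58.8 CPM), Junb (63.0 CPM), Egr1 (172 CPM), Ier2 (147 CPM) and Dusp1 (50.4 CPM). The cluster led by Ap3s1, Mrpl42 and Fam96a (136 barcodes) was the lowest for Fos (16.3 CPM), Jun (57.0 CPM) and Btg2 (26.5 CPM). These clusters of 60 and 136 barcodes held 238248 and 490898 non-mitochondrial UMIs. Fos, Junb and Dusp1 in the first and Fos and Btg2 in the second thus rest on few UMIs. The cluster led by 1810011O10Rik, Plce1 and Slpi (134 barcodes) was the highest for Jun (132 CPM) and Btg2 (101 CPM). The cluster of dividing cells, led by Cdc20, Foxm1 and Mki67 (87 barcodes), had Fos at 21.7 CPM (13.4 to 33.2) and Btg2, which restrains division, at 59.9 CPM (45.5 to 77.5). In the cluster led by Cyp2a5, Rhbg and Slc1a2 (139 barcodes), which shares Glul with the highest cluster at 0 hours, Jun was at 127 CPM, Egr1 at 127 CPM and Fos at 51.6 CPM. In the Glul clusters Jun was thus at 129 and 127 CPM at the 2 times, and Fos at 5.67 and 51.6 CPM. The clusters were made in each library on its own, and no difference between them was tested.

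**Figure D4:**
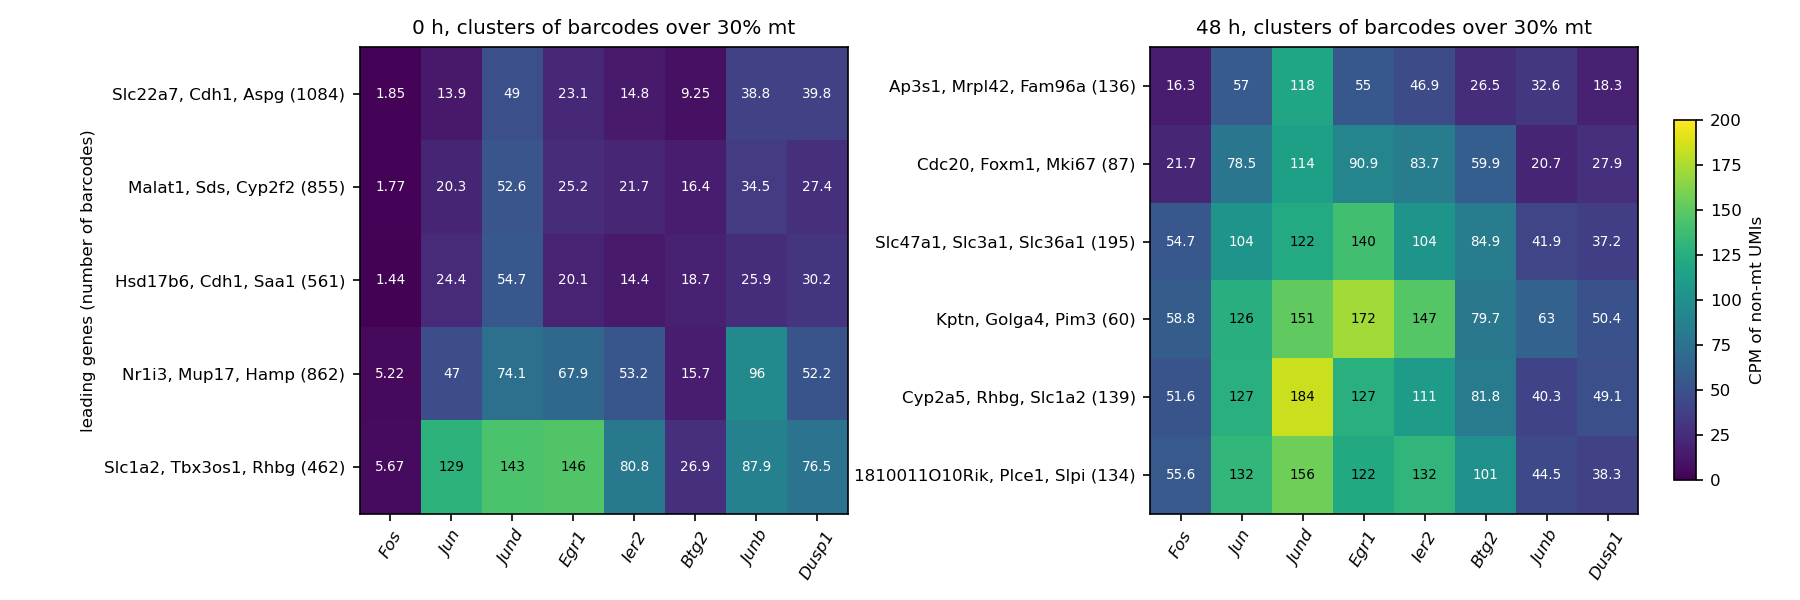
Heat map of the level (CPM of non-mitochondrial UMIs) of 8 members in 5 hepatocyte-like clusters at 0 hours and 6 at 48 hours among barcodes over 30% mitochondrial, each cluster named by its leading genes. At 0 hours Jun runs from 13.9 to 129 CPM, and at 48 hours from 57.0 to 132 CPM.

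A summed level does not say how many barcodes carry a transcript, so each barcode was thinned to 1000 non-mitochondrial UMIs. In barcodes over 30%, 1399 at 0 hours and 4 at 48 hours were shallower and left out, leaving 2471 and 761. A Fos UMI was in 0.324% of barcodes (95% Clopper-Pearson interval 0.140 to 0.637) at 0 hours and in 3.55% (2.35 to 5.12) at 48 hours, and unthinned in 0.336% and 19.6%. Egr1 was in 4.21% (3.45 to 5.08) and 11.2% (9.02 to 13.6), Jund in 6.72% and 13.01%, Jun in 4.09% and 9.86%, Ier2 in 3.68% and 8.67%, and Btg2 in 1.54% (1.09 to 2.10) and 6.96% (5.26 to 9.01). Junb was in 5.10% and 4.86%, and Dusp1 in 4.01% and 3.68%. At least 1 of the 10 members had a UMI in 22.4% of barcodes (553 of 2471) at 0 hours and in 45.9% (349 of 761) at 48 hours, and 3 or more members in 1.497% and 2.89%. The UMIs were thus spread over many barcodes. The same share in barcodes under 2%, where free RNA would give such UMIs, was 9.71% at 0 hours and 13.2% at 48 hours, with median depths of 1413 and 5271.5 non-mitochondrial UMIs before thinning, against 1563 and 4428 in the barcodes kept over 30%.

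**Figure D5:**
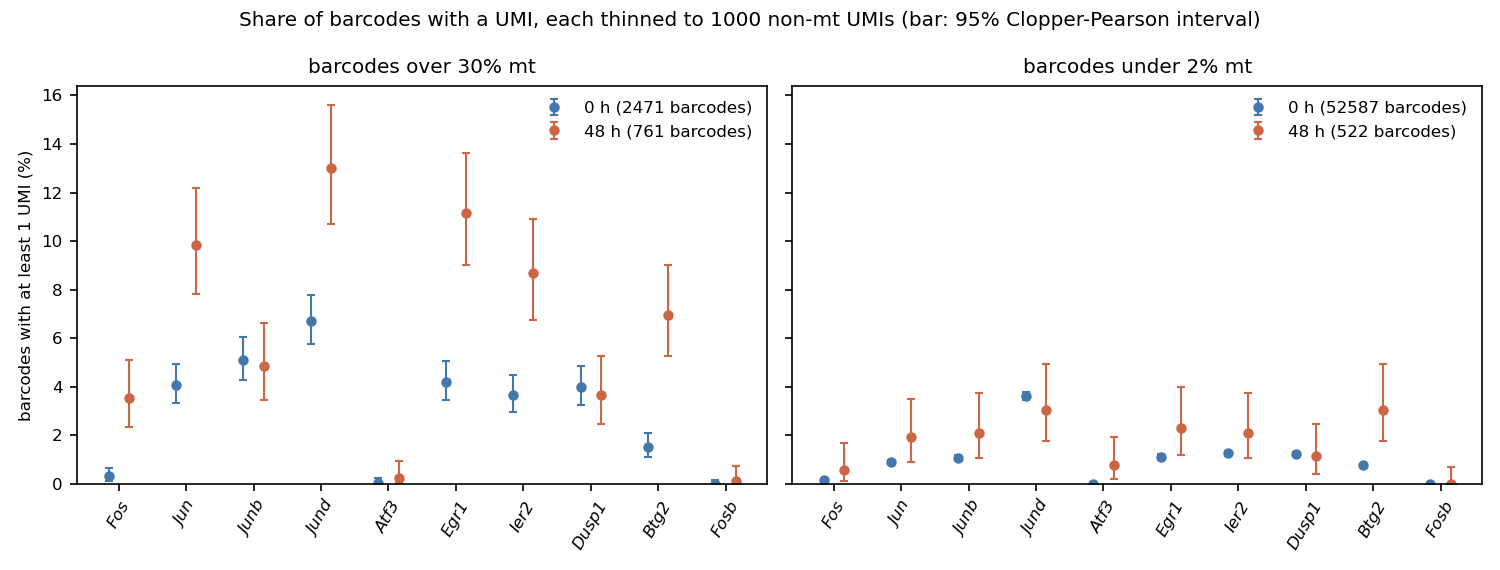
Percent of barcodes with at least 1 UMI of each member after thinning to 1000 non-mitochondrial UMIs, over 30% and under 2% mitochondrial, at 0 hours (blue) and 48 hours (orange); bars are 95% Clopper-Pearson intervals. Egr1 over 30% goes from 4.21% to 11.2%, and under 2% from 1.13% to 2.30%.

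Barcodes under 2% mitochondrial had lower levels of most members than those over 30%, but not of Fosb at 0 hours or Atf3 at 48 hours. Summed over the 10 members the level was 105.5 CPM at 0 hours and 185.9 CPM at 48 hours, against 294.2 and 678.1 CPM over 30%. Between the times, 6 of 9 members were at least 2-fold higher at 48 hours (background 24.3% of 11867 genes) and 0 lower (21.8%), with a median log2 ratio of 1.47 against 0.05 for all genes. Atf3 was at 0.127 CPM (10 UMIs) and at 4.78 CPM (15 UMIs), a log2 ratio of 5.24 (3.98 to 6.55). Fos was at 1.74 and 6.70 CPM (1.94, interval 1.21 to 2.61), and Btg2 at 7.56 and 27.4 CPM (1.86, interval 1.52 to 2.19). Ier2 had a log2 ratio of 1.499, Jun 1.47 and Egr1 1.07, each with an interval above 0. Junb was at 11.6 and 17.9 CPM, a log2 ratio of 0.62 (0.20 to 1.01), which is above 0 where that over 30% was below it. Jund stood at −0.19 (−0.49 to 0.09) and Dusp1 at −0.45 (−1.03 to 0.08), and Fosb had 2 UMIs at 0 hours and 0 at 48 hours.

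The share of these barcodes called departing differed between the times. A departure is easier to call in a deeper barcode, and those that did not depart had medians of 1419 and 5043 UMIs. The part of depth in the share called was not tested. Barcodes that departed from the pooled profile gave 2.58% of the non-mitochondrial UMIs under 2% at 0 hours and 31.9% at 48 hours. Without them 1 of 8 members with at least 20 UMIs, Btg2, was at least 2-fold higher (background 20.9% of 11523 genes), with a log2 ratio of 1.16 (0.61 to 1.66), and 0 were lower (25.5%). Atf3, with 9 UMIs at 0 hours and 5 at 48 hours, stayed 19.97-fold higher (5.26 to 66.4). Among the rest Fos was at 1.52 and 2.34 CPM (0.62, interval −1.03 to 1.88), Jun at 0.71 (0.13 to 1.23), Egr1 at 0.78 (0.30 to 1.23), Ier2 at 0.68 (0.20 to 1.13), Junb at 0.19 (−0.43 to 0.75), Jund at −0.37 (−0.76 to −0.01) and Dusp1 at −0.99 (−1.91 to −0.21). In the departing barcodes alone Btg2 was at 1.13 (0.54 to 1.73), Ier2 at 0.999 (0.51 to 1.49) and Fos at 0.70 (−0.35 to 1.72). Jun was at 0.64 (0.08 to 1.19) there, Egr1 at 0.49 (−0.17 to 1.13), Jund at −0.32, Junb at −0.70 (−1.34 to −0.10) and Dusp1 at −0.98. In all barcodes under 2% each of these members had a higher ratio than in either part. Those ratios thus also hold the changed share of departing barcodes. In all barcodes under 2% the heat shock genes summed to 2708 CPM at 0 hours and 3718 CPM at 48 hours, the nuclear RNAs to 2312 and 2264 CPM and the stromal markers to 33.4 and 191.6 CPM. The part of these in the members' ratios was not tested.

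At each time the barcodes over 30% were also set against those under 2% of their own library, which share mouse, perfusion and depth of sequencing. At 0 hours, 6 of 8 members were at least 2-fold higher over 30% (background 16.1% of 11882 genes) and 0 lower (11.3%). Junb had a log2 ratio of 2.14 (1.95 to 2.33), Jun 2.03 (1.80 to 2.25), Egr1 1.96, Dusp1 1.68, Ier2 1.32 and Btg2 1.14 (0.81 to 1.45). Fos, at 0.67 (−0.18 to 1.42), was not set apart from the barcodes under 2% by more than counting error. Jund stood at 0.82 (0.66 to 0.97), and at −0.047 when all UMIs were the denominator. Atf3 had 2 UMIs over 30% and 10 under 2%, and Fosb 0 and 2. At 48 hours, 8 of 9 members were at least 2-fold higher over 30% (background 37.0% of 9872 genes) and 0 lower (6.35%). Fos now had the highest log2 ratio, 2.72 (2.07 to 3.44), followed by Egr1 at 2.21, Jund at 2.11, Jun at 2.10, Dusp1 at 2.03, Ier2 at 1.54 and Btg2 at 1.53. Junb was at 1.11 (0.68 to 1.57), and at −0.017 with all UMIs as the denominator, and Atf3 stood at −0.15 (−1.16 to 0.90), while Fosb had 4 UMIs over 30% and 0 under 2%. With all UMIs as the denominator 3 members at 0 hours and 2 at 48 hours were at least 2-fold higher. The share of all genes was not counted with that denominator. Of 12 heat shock genes 0 were at least 2-fold higher over 30% and 3 lower at 0 hours, with a median of −0.76, and 2 were higher and 1 lower at 48 hours, with a median of −0.21. Of 4 nuclear RNAs 4 were higher at 0 hours, with Neat1 at 3.90 and Meg3 at 3.61, and 3 at 48 hours. The part of either list in the members' ratios was not tested.

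Hepatocyte-like barcodes at 2% to 30% mitochondrial gave a smaller difference between the times. Of 8 members 2 were at least 2-fold higher at 48 hours, a share near the background of 28.0% of 8279 genes, and 0 lower (10.4%), with a median log2 ratio of 0.27 against 0.33 for all genes. The 2 were Btg2, at 16.8 and 65.7 CPM (1.97, interval 1.24 to 2.78), and Fos, at 6.92 and 22.9 CPM (1.73, interval 0.58 to 3.11). Egr1 was at 56.4 and 84.7 CPM (0.59, interval 0.16 to 1.04). Jun (70.2 and 79.95 CPM), Jund (84.1 and 90.3 CPM) and Ier2 (58.4 and 74.3 CPM) had intervals that held 0. Junb was lower at 48 hours, at 59.3 and 33.3 CPM (−0.83, interval −1.34 to −0.32), and so was Dusp1, at 45.5 and 24.2 CPM (−0.91, interval −1.50 to −0.32). Atf3 had 2 UMIs at 0 hours and 14 at 48 hours, and Fosb 0 at both times. At 0 hours, Jun and Ier2 thus stood higher in these barcodes than in those over 30% of the same library (37.6 and 32.2 CPM). Egr1 and Jund had higher levels too (against 46.0 and 67.0 CPM), but their intervals overlapped. For Egr1 they were 42.7 to 73.0 and 40.7 to 51.9 CPM, and for Jund 67.2 to 104.0 and 60.5 to 74.0 CPM. Nuclear retained RNAs differed here too, with 17503 CPM at 0 hours and 2128 CPM at 48 hours, and heat shock genes summed to 1776 and 3614 CPM. Their part in the members' values was not tested.

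The non-hepatocyte classes held the members too, with a summed level at 0 hours of 524.0 CPM in endothelial-like, 466.4 CPM in macrophage-like, 469.5 CPM in stromal-like and 339.6 CPM in T or NK-like barcodes, against 294.2 CPM over 30%. In endothelial-like barcodes at 0 hours, 8 of 8 members were at least 2-fold above the barcodes under 2% (background 47.9% of 12048 genes) and 0 below (9.98%). Dusp1 led them at 155 CPM, a log2 ratio of 3.62 (3.32 to 3.91), followed by Fos at 18.7 CPM (3.42), Btg2 at 47.4 CPM (2.65), Jun at 57.4 CPM (2.64), Junb at 60.3 CPM (2.37), Egr1 at 53.1 CPM (2.17) and Jund at 99.0 CPM (1.39). Atf3, with 3 UMIs against 10, had a log2 ratio of 5.08 (2.58 to 7.04), and Fosb had 0 UMIs. Ier2, at 28.7 CPM and a log2 ratio of 1.16, was at −0.14 under TMM scaling and at −0.073 with DESeq2 size factors, since TMM shifts all genes in this comparison by 1.30 on the log2 scale. At 48 hours, 5 of 8 were at least 2-fold above (background 38.8% of 7623 genes) and 0 below (16.0%), again with Dusp1 at the top (180.5 CPM, log2 ratio 4.29, interval 3.57 to 5.03). Fos stood at 2.39, Jun at 1.47, Jund at 1.17 and Egr1 at 1.09, while Junb (0.79), Ier2 (0.28) and Btg2 (−0.64) had intervals that held 0, and Atf3 and Fosb had 1 UMI each. Dusp1 over 30% was at 40.3 and 37.8 CPM, below its level in endothelial-like barcodes at both times.

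In macrophage-like barcodes at 0 hours, 7 of 9 members were at least 2-fold above the barcodes under 2% (background 40.9% of 11927 genes) and 0 below (15.1%). Atf3, at 21.3 CPM (10 UMIs), had a log2 ratio of 7.39 (5.97 to 8.81), and Fos (25.6 CPM) one of 3.88, Jun (74.5 CPM) 3.02, Junb (89.4 CPM) 2.94, Btg2 (44.7 CPM) 2.57, Dusp1 (61.8 CPM) 2.29 and Jund (127.8 CPM) 1.75. Egr1 (8.52 CPM, 4 UMIs) and Ier2 (12.8 CPM) were not set apart, at −0.47 (−2.35 to 0.89) and −0.01 (−1.46 to 1.12). At 48 hours, 5 of 8 were at least 2-fold above (background 31.8% of 7198 genes) and 0 below (22.1%), with Dusp1 at 3.15, Fos at 2.45, Junb at 2.35, Jund at 1.95 and Jun at 1.103. Btg2 (0.74), Egr1 (0.55) and Ier2 (0.33) had intervals that held 0, Atf3 had 0 UMIs, and Fosb had 0 UMIs in this class at either time. In stromal-like barcodes at 0 hours, 8 of 8 were at least 2-fold above (background 26.0% of 11793 genes) and 0 below (25.3%), with Fos at 31.0 CPM (4.15), Jun at 98.0 CPM (3.41), Dusp1 at 77.4 CPM (2.62), Egr1 at 61.9 CPM (2.39), Btg2 at 36.1 CPM (2.26), Junb at 46.4 CPM (1.996), Jund at 92.9 CPM (1.29) and Ier2 at 25.8 CPM (1.004, interval −0.62 to 2.23). Atf3 and Fosb had 0 UMIs there. At 48 hours, 4 of 8 were (background 42.0% of 7820 genes) and 0 below (16.3%), with Dusp1 at 3.52, Junb at 2.41, Fos at 1.93 and Jun at 1.65, in barcodes that also carry endothelial markers. Egr1 (0.93), Jund (0.72), Btg2 (0.55) and Ier2 (0.49) had intervals that held 0, Atf3 had 3 UMIs and Fosb 0. In T or NK-like barcodes at 0 hours, 4 of 8 were at least 2-fold above (background 27.5% of 11764 genes) and 1 below (35.8%). Btg2 and Junb stood at 91.1 CPM each, log2 ratios of 3.59 (2.58 to 4.44) and 2.97 (1.96 to 3.81). The 1 below was Fos, with 0 UMIs, where 3 UMIs would be 24.8 CPM. That floor lies above the 1.74 CPM of Fos in barcodes under 2%, so this count does not set Fos apart. Ier2 (33.1 CPM, 1.36) and Jund (82.8 CPM, 1.13) rested on 4 and 10 UMIs, Jun, Dusp1 and Egr1 on 2, 2 and 1, and Atf3 and Fosb had 0. Among members with at least 20 UMIs over both sums, the highest ratio at 0 hours was that of Dusp1 in endothelial-like, Fos in stromal-like, Atf3 in macrophage-like and Btg2 in T or NK-like barcodes. Under TMM scaling the members at least 2-fold above the barcodes under 2% numbered 5, 6, 6 and 2 in endothelial-like, macrophage-like, stromal-like and T or NK-like barcodes at 0 hours, and 2, 3 and 2 in the classes found at 48 hours. The share of all genes was not counted under that scaling.

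Between the times, few members of the non-hepatocyte classes passed 2-fold. In endothelial-like barcodes 0 of 8 members were at least 2-fold higher at 48 hours (background 16.1% of 6341 genes) and 1 lower (20.3%), which was Btg2, at 47.4 and 17.6 CPM (−1.43, interval −3.39 to 0.06). Fos was at 18.7 and 35.2 CPM (0.92, interval −0.56 to 2.30), Egr1 at 53.1 and 52.8 CPM, and Dusp1 at 155 and 180.5 CPM (0.22, interval −0.34 to 0.75). Jun was at 57.4 and 70.4 CPM, Junb at 60.3 and 30.8 CPM (−0.97, interval −2.37 to 0.20), Jund at 99.0 and 74.8 CPM and Ier2 at 28.7 and 44.0 CPM. Atf3 had 3 UMIs and 1 UMI, and Fosb 0 and 1. In macrophage-like barcodes 0 of 5 were higher (background 12.7% of 4238 genes) and 0 lower (21.1%), with Junb at 89.4 and 91.3 CPM, Btg2 at 44.7 and 45.7 CPM, Jun at 74.5 and 54.8 CPM, Jund at 127.8 CPM at both times and Dusp1 at 61.8 and 82.2 CPM. Under 20 UMIs, Fos had 12 and 4, Egr1 4 and 4, Ier2 6 and 5, Atf3 10 and 0, and Fosb 0 and 0. In stromal-like barcodes 1 of 5 was higher (background 44.4% of 3639 genes) and 0 lower (16.2%), which was Junb, at 46.4 and 94.8 CPM (1.03, interval −0.11 to 2.31). Jun was at 98.0 and 80.2 CPM, Jund at 92.9 and 54.7 CPM, Egr1 at 61.9 and 47.4 CPM and Dusp1 at 77.4 and 105.8 CPM. Under 20 UMIs, Fos had 6 and 7, Ier2 5 and 14, Btg2 7 and 11, Atf3 0 and 3, and Fosb 0 and 0. In these 3 classes, with 19 to 37 barcodes each at 48 hours, the interval of every member with at least 20 UMIs held 0. The 15.9-fold difference of Fos in barcodes over 30% lay outside the interval of Fos in endothelial-like barcodes, but the difference between the ratios was not tested. Summed over the 10 members, the level at 48 hours was 515.0 CPM in endothelial-like, 520.4 CPM in macrophage-like and 510.7 CPM in stromal-like barcodes. Heat shock genes summed to 2506 and 4120, 3007 and 3972, and 2513 and 4319 CPM in the same order, so they stood higher at 48 hours in all 3 classes.

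The other genes of the pathway were counted from fixed lists in barcodes over 30%, 48 hours against 0 hours. Of all genes there, 31.8% were at least 2-fold higher and 5.69% lower. Of 12 other AP-1 partners 6 had at least 20 UMIs, and 0 were 2-fold higher or lower, with a median log2 ratio of 0.03 (Fosl2 0.80 and Atf2 0.45 at the top, Atf7 −0.35 and Atf4 −0.12 at the bottom). Their median thus lay below that of all genes, 0.56, while the intervals of Fos and Jun lay above it. The partner Maff, with under 20 UMIs, had 0 at 0 hours and 12 at 48 hours, at least 4.53-fold above the floor of 3 UMIs. Of 39 other immediate early genes 28 had at least 20 UMIs, and 15 were at least 2-fold higher and 3 lower, with a median of 1.14. Per1, a clock gene, was at 1.04 and 24.9 CPM (4.58, interval 3.42 to 6.06), and Klf6, a zinc finger factor, at 2.42 and 20.6 CPM (3.09). Gadd45b, a stress gene, had 0 UMIs at 0 hours and 32 at 48 hours, at least 12.1-fold above the floor. Phlda1 was lower at 48 hours, at 466 and 77.8 CPM (−2.58), and so was Gadd45g, at 82.9 and 19.6 CPM (−2.08). The early genes thus did not go as a block, and Gadd45b and Gadd45g lay on opposite sides.

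Of 20 upstream kinases and factors 19 had at least 20 UMIs, and 5 were at least 2-fold higher and 0 lower, with a median of 0.80. The MAP kinase kinases Map2k3 (1.52) and Map2k2 (1.48) were at the top, and the factors Elk4 (−0.07) and Crem (−0.05) at the bottom. Of 18 genes linked to AP-1 activity 8 had at least 20 UMIs, and 3 were higher and 0 lower, with a median of 0.78. Cyclin D1 (Ccnd1), which drives entry into the cell cycle, was at 4.50 and 195.2 CPM (5.44, interval 4.88 to 6.06), and the TWEAK receptor Tnfrsf12a at 4.33 and 56.0 CPM (3.70). Vegfa stood at −0.48 and the heme oxygenase Hmox1 at 0.28. The shares of 5 of 19 and 3 of 8 are to be read against the 31.8% of all genes that were at least 2-fold higher.

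The same lists in barcodes under 2% gave other counts. Of the other AP-1 partners 1 of 8 was at least 2-fold higher (Maff, 2.48), and of the other immediate early genes 12 of 33 were higher and 8 lower, with a median of 0.07, beside 24.3% of all genes higher and 21.8% lower there, so the share lower is near the background. Per1 (5.30) and Gadd45b (4.90) were at the top and Phlda1 (−2.67) and Csrnp1 (−2.48) at the bottom. Of the linked genes 4 of 10 were higher, led by Ccnd1 (4.51), and of the upstream genes 1 of 19 was higher (Crem, 1.21) and 2 lower. Per1 and Ccnd1 therefore had high ratios in both kinds of barcode. In hepatocyte-like barcodes at 2% to 30%, 6 of 21 other immediate early genes were higher and 3 lower, near the 28.0% and 10.4% of all genes there, with Per1 at 4.26, Ier5 at 4.05, Phlda1 at −3.13 and Csrnp1 at −2.96.

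Across 14 barcode groups of both libraries with at least 20 barcodes, 5462 genes were compared with each member by Pearson's r of their log2 levels, as a description over groups that share libraries, depth and free RNA. Fos was most like Ddb1 (0.857), Zyx (0.813) and Fndc3b (0.794). Fosb, which had at most 4 UMIs in any group, gives no usable pattern. Jun was most like Maz (0.840), Gle1 (0.810) and Immt (0.785). Junb was closest to Stx16 (0.911), Wac (0.844) and Pik3r1 (0.843). Jund was most like Epn1 (0.896), Gtf3c2 (0.854) and Mapk14 (0.851). Egr1 was closest to Stk11 (0.823), Maz (0.778) and Get4 (0.775). Atf3 was most like Ywhag (0.895), Cndp2 (0.889) and Usp12 (0.888), but with 1 CPM added none of them stayed among its 3 closest. Ier2 was closest to Rab1b (0.915), Bhlhe40 (0.905) and Nr1d2 (0.900). Dusp1 was most like Slc29a1 (0.949), Tnfrsf1a (0.946) and Zcchc14 (0.943). Btg2 was closest to Gtf2f1 (0.849), Gltscr2 (0.838) and Riok3 (0.813). Between members, Jun and Egr1 were the most alike (0.74), then Fos and Dusp1 (0.69), and Dusp1 and Btg2 the least (−0.24).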

How the data were processed

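The authors deposited UMI counts per gene and barcode from 10X Genomics version 2 libraries, made with Cell Ranger on mm10 per the labels. The Cell Ranger version, the annotation and the study's limits on mitochondrial share and doublets are not given in the sources used here. Groups by mitochondrial share were summed over all deposited barcodes. Classes came from barcodes up to 30% mitochondrial with at least 1000 UMIs, 500 genes and 10% of the depth of the barcode ranked 30 in its library (11578 and 47030 UMIs), which departed from the pooled profile (deviance at least 1.1 times its expectation and 5 SD). The pooled profile was that of alternate barcodes under 2% mitochondrial of the same library. Scrublet in scanpy 1.11.5 removed 6 of 1701 and 4 of 363 as doublets, and the rest were clustered by Leiden (leidenalg 0.10.2, resolution 1.0, 2000 genes, 30 components, 15 neighbours) without the members and the pathway, heat shock and nuclear RNA lists. Barcodes over 30% were clustered on their own, a step chosen after seeing the data. A cluster was named from at least 3 markers, and no doublets were called over 30%.

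Levels are summed UMIs per 1000000 non-mitochondrial UMIs with exact 95% Poisson intervals, and ratios have exact conditional binomial intervals (SciPy 1.17.1, Python 3.11.15). Genes with at least 20 UMIs over both sums were counted past 2-fold, and these steps were tested on simulated data. TMM factors came from edgeR 4.0.16 and size factors from DESeq2 1.42.0 in R 4.3.3, as scalings only. Motifs were sought in the RefSeq promoters, and coordinates came from GENCODE M21. The members and lists were chosen with earlier results of these data known. By rule all 10 members were to be named in every comparison of groups. Members with few UMIs are given by their UMIs. From each other list the 2 highest and 2 lowest ratios were to be named, with genes at 0 UMIs at 0 hours left out of that order, as was Gadd45b, which is named after its value was seen. For each member the 3 most alike genes were sought. The barcodes that depart from the profile were left out or kept alone as alternatives chosen after seeing the data.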

Additional observations from a re-analysis of the deposited data

Results flagged for a closer look

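Junb was the member whose ratio between the times lay on different sides of 0 in different groups with intervals that excluded 0 on both sides. Its log2 ratio of 48 hours to 0 hours was 0.62 (0.20 to 1.01) in barcodes under 2% mitochondrial, −0.41 (−0.68 to −0.15) in barcodes over 30% and −0.83 (−1.34 to −0.32) in hepatocyte-like barcodes at 2% to 30%, and each interval excluded 0. Each value comes from 1 library a time point, so the difference between groups was not tested. In barcodes under 2% the ratio was 0.19 (−0.43 to 0.75) without those that departed from the pooled profile and −0.70 (−1.34 to −0.10) in those that departed. The 0.62 of all barcodes under 2% lay above both parts, and neither part had an interval wholly above 0. Departing barcodes gave 2.58% of the non-mitochondrial UMIs under 2% at 0 hours and 31.9% at 48 hours. The 0.62 thus also holds this changed share.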

How the results depend on the processing

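No paired analysis was possible because each time point has 1 library and the labels give no replicate numbers. Of 1513 member ratios recomputed under the alternatives, 1336 stayed inside the main counting interval, 170 left it and 7, all with a main interval that excluded 0, changed sign. The sign also changed in 57 whose main interval held 0, counted above by the interval. Counts of members at least 2-fold higher or lower that moved by over 1.5 times are given here, 48 hours against 0 hours first. The share of all genes was not counted under these alternatives, except without the departing barcodes under 2%. Over 30%, 7 higher became 4 with TMM. Under 2%, 6 higher became 2 with 10 CPM added and 1 without the departing barcodes, and 0 lower became 1 with no minimum of UMIs. In hepatocyte-like barcodes 0 lower became 2 without the 20 most abundant genes, with TMM and with DESeq2, and 1 with the mean of single-barcode CPM and at resolution 0.5 (where the group at 0 hours took in barcodes of a cluster led by Crip1, H2-Ab1 and Lyz2, the last 2 being genes of immune cells), while 2 higher became 1 with 10 CPM added, at 100 UMIs and at resolution 0.5. In endothelial-like barcodes 1 lower became 2 without the top 20 genes, with TMM, at resolution 0.5 and with barcodes at 2% mitochondrial or more, and 0 at 100 UMIs, while 0 higher became 1 with no minimum. In macrophage-like barcodes 0 higher became 2 and 0 lower became 1 with no minimum. In stromal-like barcodes 1 higher became 0 with all UMIs, without the top 20, with mean CPM, 10 CPM added, TMM, DESeq2 and 100 UMIs, and 2 with no minimum, while 0 lower became 1 without the top 20, with TMM and with DESeq2, and 2 at 2% mitochondrial or more.

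Over 30% against under 2%, 6 higher at 0 hours became 3 with all UMIs and 0 lower became 1 with no minimum, and 8 higher at 48 hours became 2 with all UMIs and 5 with DESeq2, while 0 lower became 1 with all UMIs. Against under 2% at 0 hours, endothelial-like 8 higher became 5 with TMM and DESeq2 and 0 lower became 1 with no minimum. Macrophage-like 0 lower became 2 with TMM and 1 with DESeq2 or no minimum, and stromal-like 0 lower became 2 with no minimum and 1 against under 5%. T or NK-like 4 higher became 2 with 10 CPM, TMM and DESeq2, and 1 lower became 0 with 10 CPM, 2 with TMM, DESeq2 and under 5%, 3 with no minimum and 4 at 2% mitochondrial or more. At 48 hours, endothelial-like 5 higher became 3 without the top 20, with 10 CPM and against under 5%, 2 with TMM and DESeq2 and 1 at 100 UMIs, and 0 lower became 1 with TMM and DESeq2. Macrophage-like 5 higher became 3 with TMM and DESeq2 and 1 at 100 UMIs, and 0 lower became 1 with no minimum. Stromal-like 4 higher became 2 with TMM and DESeq2 and 1 at 100 UMIs. TMM moved all genes by 0.34 on the log2 scale under 2%, and by 1.30 and 1.09 for endothelial-like barcodes at 0 and 48 hours.

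Log2 ratios whose main interval excluded 0 and that changed sign were Junb over 30% between the times (0.011 over 50%), Jund at 0 hours (−0.047) and Junb at 48 hours (−0.017) over 30% against under 2% with all UMIs, Ier2 in endothelial-like barcodes at 0 hours (−0.14 with TMM, −0.073 with DESeq2) and Egr1 there at 48 hours (−0.0056 with TMM, −3.7e-06 with DESeq2). Of the 30 gene pairs called most alike, 16 were kept with 1 CPM added. Stromal-like barcodes at 48 hours were not found at resolution 0.5, so that value is missing. Beyond the scalings the cause of these moves was not tested. Depth limits Fosb and Atf3, with 0 to 22 UMIs in barcodes over 30%, and the classes at 48 hours, with 19 to 37 barcodes.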

Other observations

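At 0 hours a cluster of 36 barcodes that met no class, led by S100a8, S100a9 and Ly6c2, had Fos at 187 CPM (110.6 to 294.8, 18 UMIs), Junb at 176 CPM (17 UMIs) and Btg2 at 166 CPM (16 UMIs), with Jun at 31.1 CPM (3 UMIs). S100a8 and S100a9 are calprotectin genes of neutrophils and monocytes. A hepatocyte-like cluster of 81 barcodes at a median of 0.697% mitochondrial, led by Gm12909 with the nuclear RNA Neat1 among its leading genes, had Junb at 156 CPM, Jun at 129 CPM and Fos at 7.61 CPM (2 UMIs). These clusters were chosen after their values were seen. The 24 B-like barcodes at 0 hours had Jun and Btg2 at 93.5 CPM each (5 UMIs each) and 0 UMIs of Fos.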
